A study of Rattus norvegicus with 6 samples.

Results

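The genes examined here encode the constitutive subunits of the proteasome, together with the assembly factors that carry a Psmd name. They comprise 34 listed genes, defined by symbol under a rule that used no measured value, although the family was picked for study with earlier results of these data known: Psma1 to Psma7 and Psmb1 to Psmb7 for the core particle, and Psmc1 to Psmc6 and Psmd1 to Psmd14 for the regulatory particle. A probe was matched to 33 of the 34 (56 probes), and all 33 were tested among 32663 gene entries. No probe matched Psmd11, which was not analysed here.

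The samples were renal cortex of 6 male Sprague-Dawley (Crl:CD(SD)) rats that were 5 weeks old when bought. One group of 3 animals received corn oil and the other group of 3 received anthraquinone, a tricyclic quinone, at 1000 mg/kg/day, each over 4 weeks. Each animal had its own 1-colour (Cy3) Agilent array, and the study asked which renal cortical genes change with the compound. With 3 animals a group, the p-values and standard errors rest only partly on the animals' spread. In limma each gene's variance is drawn toward a value estimated over all gene entries. Precision is limited by how few arrays there are.

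The proteasome degrades proteins tagged with ubiquitin. Its core particle stacks rings of alpha subunits, which gate the entry, around rings of beta subunits, some of which cut the substrate. The regulatory particle consists of a base, with ATPases that unfold the substrate, and a lid, which removes ubiquitin. In mammals the transcription factor Nrf1 (gene Nfe2l1) raises subunit genes together when the proteasome is inhibited, and Nrf2 (gene Nfe2l2), which senses quinones and other electrophiles through Keap1, has been linked to some of them. The antioxidant response element is the DNA sequence both factors bind.

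The 75th percentile of the processed intensity lay between 844 and 1191 over the 6 arrays, and 64.2 to 70.7% of probes were well above background. The array of corn oil replicate 1 had a slide and a scan to itself, and the other 5 arrays shared the other slide. All 9 proximal tubule markers were measured, and the 4 measured inner medulla and papilla markers summed to 0.742 to 1.02 times the array's 75th percentile, with Krt20 not well above background. All 4 red cell markers had an unadjusted limma p under 0.05 upward, with a summed signal of 496 to 639 in corn oil and 765 to 1018 in anthraquinone on the same scale. Of 6 principal cell markers 3 had such a p downward and 1 upward (summed signal 164 to 192 and 138 to 173), and of 9 leukocyte markers 7 were measured and 2 had it downward (87.5 to 104.2 and 70.0 to 90.01), with Cd163 and Cd3e not well above background. Over all entries 9.47% had such a p upward and 7.65% downward. The red cell marker Slc4a1 was also listed for intercalated cells. The 4 measured thick ascending limb and 2 measured distal convoluted tubule markers all had negative differences, with medians of -0.27 and -0.50. Each of these 2 lists had 1 such p downward. Of the 9 proximal tubule markers 7 were positive, 0 with such a p. The part of these cell types in the values below was not tested. In whole tissue, fewer cells of a type and less RNA per cell cannot be told apart. On these arrays 2 Nrf2 targets passed the test: Hmox1, encoding heme oxygenase 1, had a log2 difference of 2.14 ± 0.15 (SE, n = 3 per group, limma adjusted p = 0.0311) and Nqo1, encoding a quinone reductase, one of 1.82 ± 0.12 (limma adjusted p = 0.0311). Neither gene's groups overlapped, but the call did not hold on fewer arrays: the limma adjusted p of Hmox1 was 0.0529 to 0.126 with each array left out in turn, and that of Nqo1 0.0532 to 0.133 in 5 of 6 such fits, passing only without corn oil replicate 3.

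No proteasome gene passed the test over all gene entries, in either direction. The 33 log2 differences (anthraquinone minus corn oil) ran from -0.08 for Psmb6 to 0.24 for Psmd12, which is 0.945-fold to 1.18-fold, with limma adjusted p from 0.247 to 0.992. Over all entries 9 passed (0.0276%), with 0.0153% higher and 0.0122% lower. Every gene's unadjusted 95% interval lay between 0.791-fold and 1.42-fold, and 32 of the 33 intervals included no difference. The moderated standard errors were 0.065 to 0.16, while the SD within a group ran from 0.019 to 0.23. For the tightest genes the standard error therefore exceeded the spread of the animals.

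Most of the differences were above 0, as were those of most genes of like signal. The difference was positive in 23 of 33 proteasome genes (69.7%), against 51.6% of all entries and 64.8% of the 2931 other named genes of like signal. Like signal means a mean log2 signal between the 10th and 90th percentile of the proteasome genes, without matching gene by gene. That set was dimmer, with a median signal of 3.20 against 3.77 for the proteasome genes. The median difference was 0.07 for the proteasome genes, 0.01 for all entries and 0.05 for genes of like signal. At an unadjusted limma p under 0.05, 1 of 33 was higher (3.03%), against 9.47% of all entries and 11.8% of genes of like signal. In the lower direction the count was 0 of 33, against 7.65 and 4.23%. On the brightest probe, every anthraquinone value exceeded every corn oil value in 11 of 33 (33.3%), against 15% of all entries and 22.8% of genes of like signal. Non-overlap with anthraquinone below occurred in 2 of 33 (6.06%), against 10.2 and 7.71%. After quantile normalization the proteasome median was -0.01 with 16 of 33 differences positive, and after cyclic loess normalization, an alternative added after seeing the data, it was -0.02 with 16 positive. Within the slide that held 5 arrays, 27 of 33 were positive with a median of 0.07, against 65.4% and 0.06 for genes of like signal. There 3 of 33 were higher at an unadjusted limma p under 0.05, against 10.3% of genes of like signal and 7.05% of all entries. Row on the slide was largely confounded with group: row 1 held corn oil replicates 2 and 3 alone, and row 2 held corn oil replicate 1 and all 3 anthraquinone arrays. A fit with row as a block therefore set the anthraquinone arrays against corn oil replicate 1 alone, which was on the other slide, and gave 20 of 33 positive and a median of 0.04, against 0.04 for genes of like signal.

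The link between signal and difference ran through the whole array. In named genes outside the proteasome, the median difference was -0.11 at a normalized log2 signal of -5 to -4, -0.02 at -1 to 0, 0.03 at 2 to 3, 0.08 at 4 to 5 and 0.15 at 6 to 7. The proteasome genes had mean signals of 0.41 to 5.74, and a median difference 0.02 above that of genes of like signal. Their median signal was also higher (3.77 against 3.20), and the part of this in the 0.02 was not tested. Over the alternatives, the proteasome median minus that of genes of like signal ran from -0.013 to 0.046. The lowest value came without corn oil replicate 3 and anthraquinone replicate 3, and the highest when the probes of each gene were averaged.

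**Figure D1:**
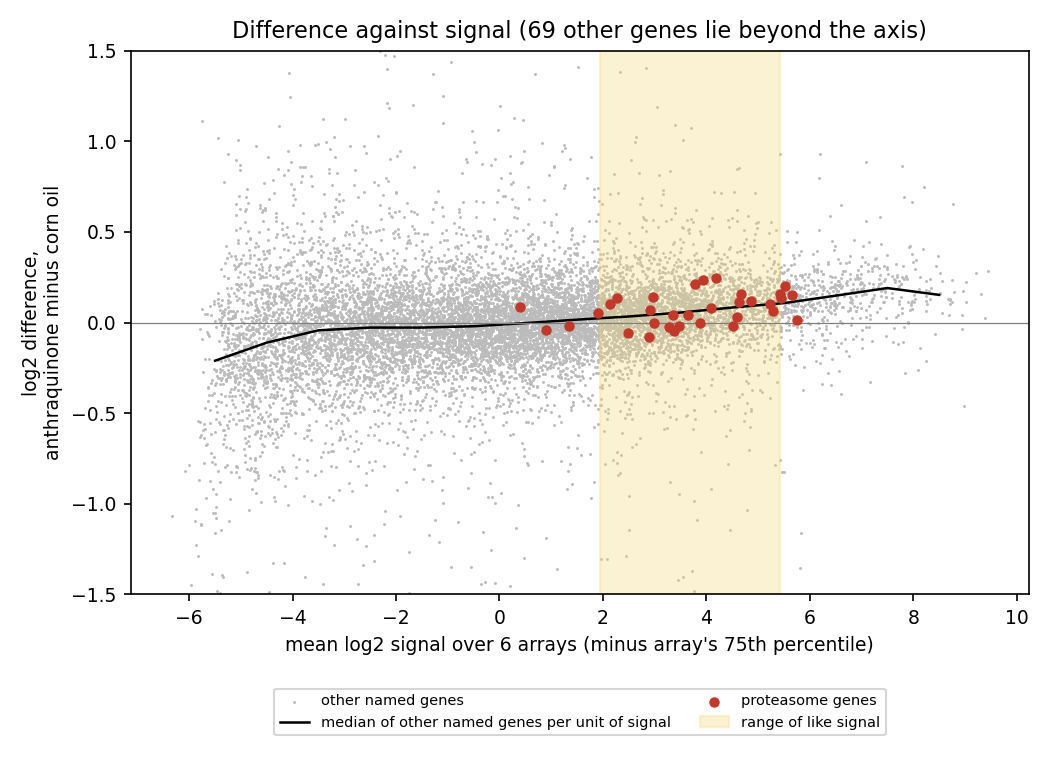
Log2 difference (anthraquinone minus corn oil) of each named gene against its mean log2 signal over 6 arrays, with the 33 proteasome genes in red, the other named genes in grey, their median per unit of signal as a black line and the range of like signal shaded. The black line passes from -0.11 at a signal of -5 to -4 to 0.15 at 6 to 7, and the proteasome genes lie between -0.08 and 0.24. Beyond the axis fall 69 other genes.

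The arrays themselves differed in how they placed the proteasome genes. Relative to each gene's corn oil mean, the median over the 33 genes was 0.03, 0.03 and -0.06 on corn oil replicates 1, 2 and 3 and 0.05, 0.06 and 0.12 on anthraquinone replicates 1, 2 and 3. Genes of like signal gave 0.02, -0.00066 and -0.02 on the corn oil arrays and 0.05, 0.05 and 0.05 on the anthraquinone arrays. Corn oil replicate 3 therefore held the low end and anthraquinone replicate 3 the high end of the proteasome medians. Corn oil replicate 3 had the lowest value of all 6 arrays for 22 of 33 proteasome genes (30.3% of genes of like signal), and anthraquinone replicate 3 the highest for 19 of 33 (25.2% of genes of like signal). Without both of these arrays, a setting added after seeing the data, the proteasome median was 0.04 and that of genes of like signal 0.05. There 20 of 33 differences were positive (63.6% of genes of like signal) and 0 of 33 had an unadjusted limma p under 0.05. Upward, 4.95% of genes of like signal and 5.39% of all entries had such a p.

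**Figure D2:**
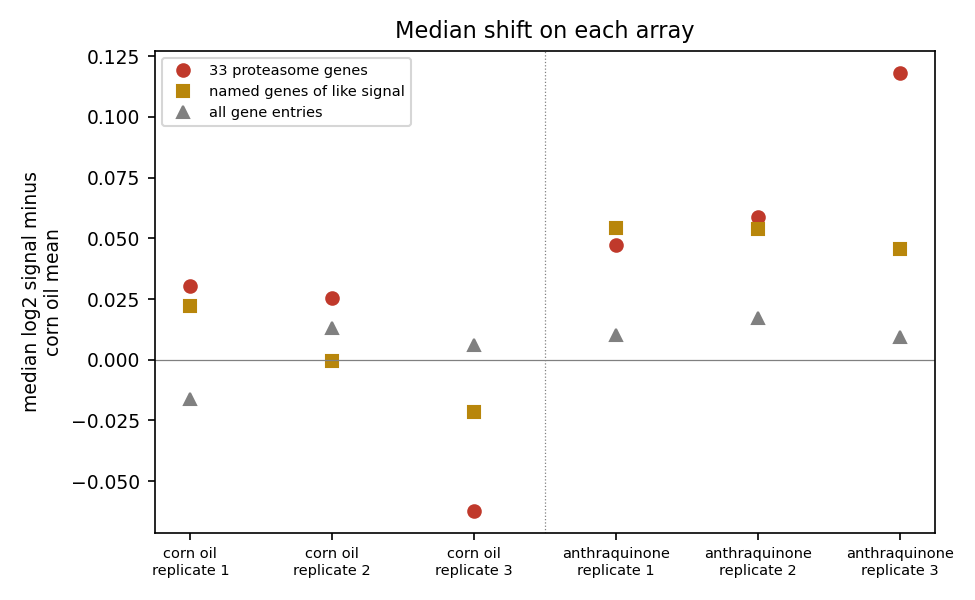
Median over genes of the log2 signal minus that gene's corn oil mean, for each array, with proteasome genes as circles, named genes of like signal as squares and all gene entries as triangles. The proteasome circle is lowest on corn oil replicate 3 (-0.06) and highest on anthraquinone replicate 3 (0.12), while genes of like signal stay near 0.05 on all 3 anthraquinone arrays.

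For the subcomplex counts below, 64.8% of genes of like signal were positive and 22.8% non-overlapping upward (51.6 and 15% of all entries). At an unadjusted limma p under 0.05, 11.8% of genes of like signal were higher (9.47% of all entries). Among the 7 alpha ring genes, 5 differences were positive, 3 had groups that did not overlap and 0 had an unadjusted limma p under 0.05, with a median of 0.12. That median was 0.0018 after quantile and 0.0016 after cyclic loess normalization, with 4 of 7 positive in each. Values below are normalized log2 signals, that is log2 intensity minus the array's 75th percentile, on each gene's brightest probe. Psma4 read 5.48, 5.41 and 5.35 with corn oil (replicates 1, 2 and 3, the order used throughout) against 5.58, 5.54 and 5.73 with anthraquinone. All anthraquinone values lay above all corn oil values, and the difference was 0.20 ± 0.08 (SE, n = 3 per group, limma adjusted p = 0.296). Psma3 read 3.65, 3.77 and 3.59 in corn oil against 3.81, 3.81 and 4.02 in anthraquinone. Here too the groups stood apart, most of all on anthraquinone replicate 3, with a difference of 0.21 ± 0.09 (limma adjusted p = 0.317). Both genes have a second, dimmer probe, which gave 0.15 for Psma4 and 0.21 for Psma3.

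Psma7 read 4.83, 4.82 and 4.74 in corn oil against 4.88, 4.89 and 4.98 in anthraquinone, again without overlap, for a difference of 0.12 ± 0.07 (SE, limma adjusted p = 0.443). Psma6 read 5.43, 5.43 and 5.24 in corn oil against 5.39, 5.54 and 5.57 in anthraquinone, and these groups overlapped (0.13 ± 0.09, limma adjusted p = 0.497). The other alpha ring genes, Psma1, Psma2 and Psma5, had differences from -0.02 to 0.04. Psma2 had the widest spread of the 33 genes, with replicate 1 low in both groups. It read 3.10 in corn oil replicate 1 and 3.11 in anthraquinone replicate 1, against 3.401 to 3.52 on the other arrays.

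The 7 beta ring genes were centred nearer 0, with a median of 0.03, 4 positive differences, 2 non-overlapping upward, 1 downward and 0 at an unadjusted limma p under 0.05. The median turned to -0.07 after quantile and -0.08 after cyclic loess normalization. Their proteolytic subunits are encoded by Psmb5 (chymotrypsin-like activity), Psmb6 (caspase-like) and Psmb7 (trypsin-like). Psmb7 read 2.94, 2.86 and 2.88 in corn oil against 3.00, 3.05 and 3.06 in anthraquinone, with no overlap and a difference of 0.14 ± 0.07 (SE, n = 3 per group, limma adjusted p = 0.343). Psmb6 went the other way, at 2.90, 2.93 and 2.95 in corn oil against 2.87, 2.83 and 2.84 in anthraquinone, with no overlap and a difference of -0.08 ± 0.06 (limma adjusted p = 0.552). Psmb5 had a difference of -0.02, so the genes for the proteolytic sites did not share a sign. Psmb4, a non-catalytic subunit, read 5.28, 5.17 and 5.11 in corn oil against 5.24, 5.31 and 5.30 in anthraquinone, with overlapping groups (0.10 ± 0.08, limma adjusted p = 0.534). The remaining Psmb1, Psmb2 and Psmb3 had differences from -0.02 to 0.08, and Psmb2 was the other beta ring gene without overlap.

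**Figure D3:**
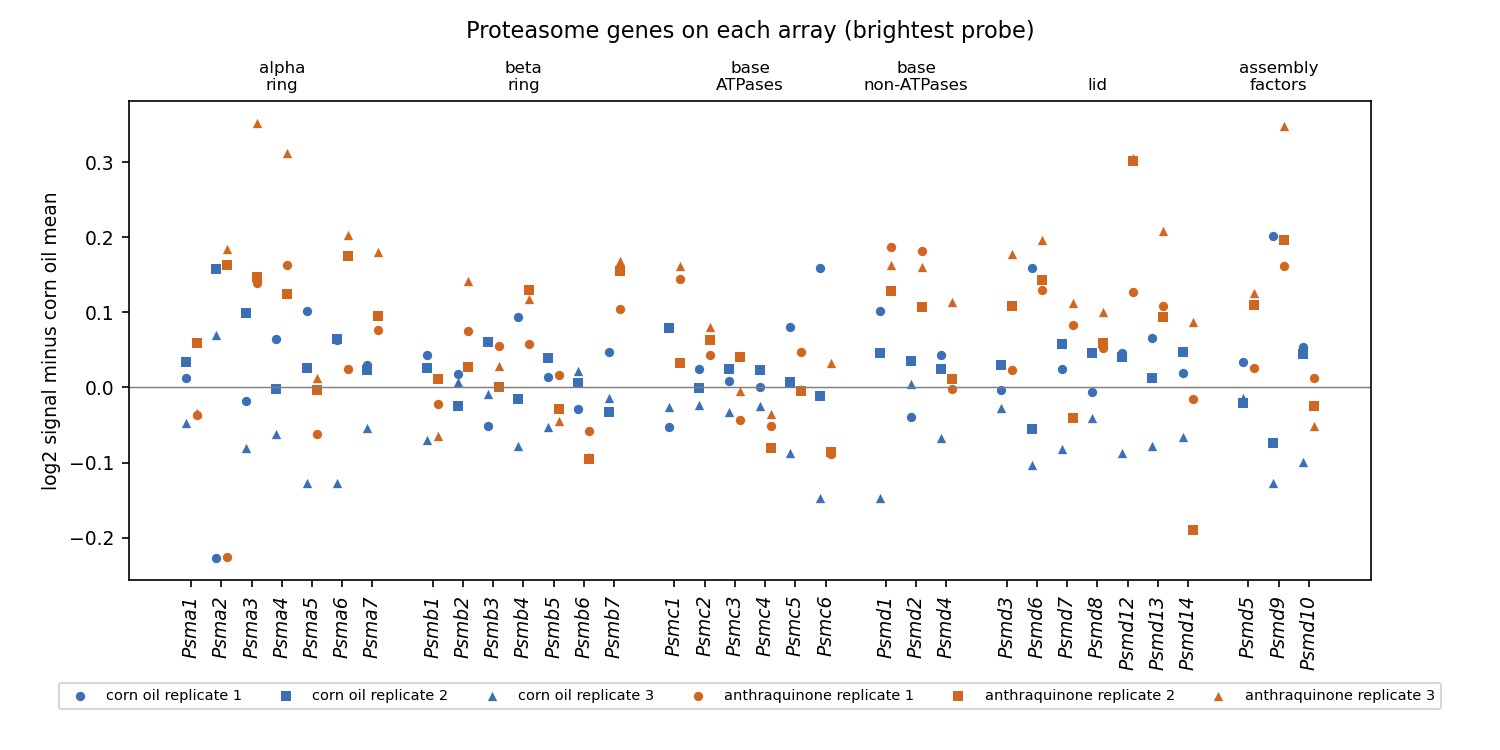
Log2 signal of each proteasome gene on each array minus its corn oil mean, brightest probe, ordered by subcomplex, with corn oil in blue, anthraquinone in orange and replicates 1, 2 and 3 as circles, squares and triangles. Corn oil replicate 3 is the lowest point for 22 of the 33 genes and anthraquinone replicate 3 the highest for 19, and Psma2 shows replicate 1 low in both groups.

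The 6 ATPase genes of the base were split evenly around 0, with 3 positive, a median of 0.01 and 0 at an unadjusted limma p under 0.05 in either direction. The median was -0.07 after quantile and -0.09 after cyclic loess normalization, each with 1 positive. Psmc1 read 4.51, 4.65 and 4.54 in corn oil against 4.71, 4.60 and 4.73 in anthraquinone, with overlap (0.11 ± 0.08, SE, n = 3 per group, limma adjusted p = 0.496). Psmc2 was apart upward and Psmc4 apart downward, with differences of 0.06 and -0.06, and Psmc3, Psmc5 and Psmc6 lay between -0.05 and 0.01. The 3 probes of Psmc4 gave negative differences throughout.

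The base also holds scaffold and ubiquitin-binding subunits without ATPase activity, and all 3 of their genes had positive differences, with a median of 0.15 (1 of 3 positive and -0.01 after quantile normalization, 2 of 3 and 0.01 after cyclic loess). Psmd2, a scaffold that docks ubiquitin shuttle proteins, read 5.53, 5.61 and 5.58 in corn oil against 5.76, 5.68 and 5.73 in anthraquinone. Its groups did not overlap, and the difference, which turned to -0.01 after quantile normalization, was 0.15 ± 0.07 (SE, n = 3 per group, limma adjusted p = 0.324). Psmd1, the other scaffold, read 5.45, 5.40 and 5.20 in corn oil against 5.54, 5.48 and 5.51 in anthraquinone, without overlap (0.16 ± 0.09, limma adjusted p = 0.405). Its second probe gave 0.04, the largest gap between probes of any proteasome gene. Psmd4, a ubiquitin receptor, had a difference of 0.04, which was -0.03 after quantile normalization and -0.05 after cyclic loess normalization.

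Of the 7 measured lid genes 6 had positive differences, with a median of 0.10, and 3 were apart upward. The lid kept 6 of 7 positive after quantile (0.05) and cyclic loess normalization (0.05). Psmd12, a scaffold subunit of the lid, read 4.12, 4.11 and 3.98 in corn oil against 4.20, 4.37 and 4.38 in anthraquinone on probe A_42_P504124. The groups did not overlap, and its difference of 0.24 ± 0.09 (SE, n = 3 per group) had the lowest p of the 33 genes (limma unadjusted p = 0.0289, adjusted p = 0.247). It was the 1 gene whose interval excluded no difference, at 1.02 to 1.37-fold. On its other probe the groups overlapped and the difference was 0.16. Psmd13 read 2.28, 2.22 and 2.13 in corn oil against 2.32, 2.31 and 2.42 in anthraquinone, also without overlap (0.14 ± 0.08, limma adjusted p = 0.410), though its second probe gave 0.02.

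Psmd6 read 4.75, 4.53 and 4.49 in corn oil against 4.72, 4.73 and 4.79 in anthraquinone, where corn oil replicate 1 reached into the treated range (0.16 ± 0.09, SE, limma adjusted p = 0.426). Psmd3 read 2.09, 2.12 and 2.07 in corn oil against 2.12, 2.20 and 2.27 in anthraquinone, with overlap (0.10 ± 0.07, limma adjusted p = 0.509). Psmd7 and Psmd8 had differences of 0.05 and 0.07. Psmd14, the deubiquitinating enzyme of the lid, was the 1 lid gene below 0, at -0.04, and its anthraquinone arrays ranged from 0.72 to 1.00.

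The assembly factors help build the base and are absent from the finished particle. Psmd9 read 4.03, 3.75 and 3.70 in corn oil against 3.99, 4.02 and 4.17 in anthraquinone. Corn oil replicate 1 lay above anthraquinone replicates 1 and 2, so the groups overlapped, and the difference was 0.24 ± 0.11 (SE, n = 3 per group, limma adjusted p = 0.346). Its 3 probes gave 0.24, 0.22 and 0.17. Psmd5 and Psmd10, the latter also called gankyrin, had differences of 0.09 and -0.02.

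All 56 probes were well above background on every array and none was saturated. In the 18 genes with several probes, the probes shared a sign in 18 of 18, and the largest gap between them was 0.12 on the log2 scale. Overlap between the groups is given for the brightest probe and changed with the probe. Groups apart on the brightest probe overlapped on another probe of Psma3, Psma4, Psmc4, Psmd1, Psmd2, Psmd12 and Psmd13. Groups that overlapped on the brightest probe stood apart on another probe of Psmb4, Psmd6 and Psmd9.

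**Figure D4:**
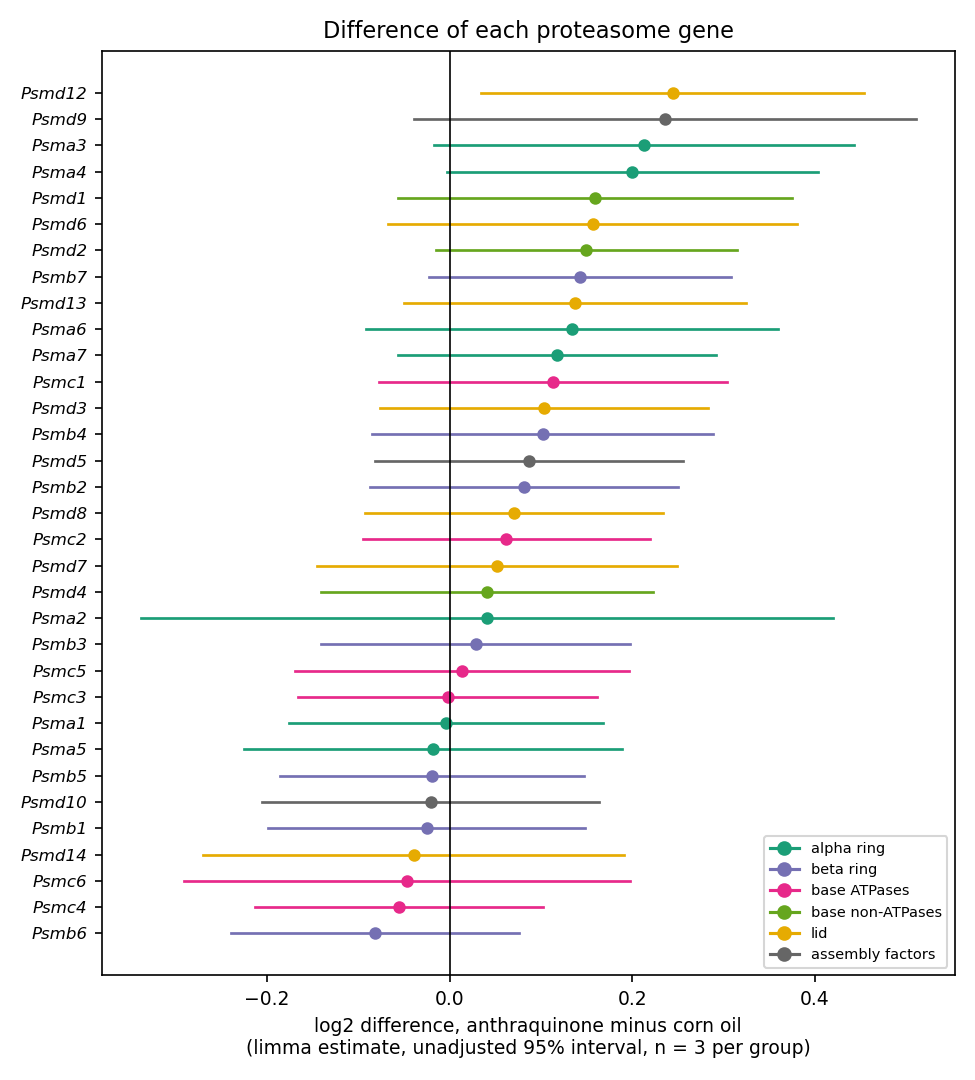
Log2 difference of each proteasome gene with its unadjusted 95% interval from limma (n = 3 per group), sorted by size and coloured by subcomplex. The estimates run from -0.08 (Psmb6) to 0.24 (Psmd12), and 32 of 33 intervals cross 0.

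The number of genes with a low unadjusted p depended on the variance model. With an intensity trend and robust estimation in eBayes, 6 of 33 were higher at an unadjusted limma p under 0.05, namely Psmd12, Psma4, Psmd2, Psma3, Psmb7 and Psmd9, against 11.2% of all entries and 17.1% of genes of like signal. Their limma adjusted p was 0.155 to 0.268, so none passed over all entries there either.

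The choice of genes used no promoter sequence. The core antioxidant response element TGACNNNGC was searched on both strands in the 250 bases before each gene start of the RefSeq promoter table (GRCr8), which holds 30 of the 34 genes. It was present in 6 of the 30 (20%), against 3373 of 33469 promoters of all genes (10.1%). The 4 sequences printed here set a pair of genes with larger differences, Psma3 and Psmd9, beside a pair near or below 0, Psmb5 and Psmb6. Capitals mark the match, printed on the gene's strand from 5′ to 3′, and a match on the opposite strand appears as its reverse complement.
Psma3, chr6:95219499-95219748, plus strand: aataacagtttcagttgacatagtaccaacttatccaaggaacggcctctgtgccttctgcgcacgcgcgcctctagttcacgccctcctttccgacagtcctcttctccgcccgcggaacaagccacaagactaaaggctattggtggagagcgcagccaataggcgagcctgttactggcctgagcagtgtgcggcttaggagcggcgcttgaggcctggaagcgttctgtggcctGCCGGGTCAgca
Psmd9, chr12:39018265-39018514, minus strand: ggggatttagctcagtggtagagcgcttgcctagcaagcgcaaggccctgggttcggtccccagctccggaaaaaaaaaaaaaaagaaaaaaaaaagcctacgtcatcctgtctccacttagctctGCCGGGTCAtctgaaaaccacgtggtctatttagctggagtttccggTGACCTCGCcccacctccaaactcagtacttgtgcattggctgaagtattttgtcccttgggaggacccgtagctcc
Psmb5, chr15:32047380-32047629, minus strand: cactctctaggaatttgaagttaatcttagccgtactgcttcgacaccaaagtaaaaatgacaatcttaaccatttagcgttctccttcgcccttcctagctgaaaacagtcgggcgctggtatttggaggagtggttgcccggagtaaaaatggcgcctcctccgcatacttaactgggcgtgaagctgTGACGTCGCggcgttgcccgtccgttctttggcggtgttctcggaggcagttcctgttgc
Psmb6, chr10:55737638-55737887, plus strand: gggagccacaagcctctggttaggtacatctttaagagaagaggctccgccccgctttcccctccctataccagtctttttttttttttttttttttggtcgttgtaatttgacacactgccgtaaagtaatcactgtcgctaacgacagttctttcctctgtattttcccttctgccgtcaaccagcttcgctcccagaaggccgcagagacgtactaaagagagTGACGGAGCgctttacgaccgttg

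The matches began at -12 in Psma3, at -124 and -77 in Psmd9, at -60 in Psmb5 and at -24 in Psmb6, counted from the gene start, with -1 as the base just before it. Psmb2 and Psmd1 were the other genes with a match. The log2 differences of the 6 genes were 0.21 for Psma3, 0.24 for Psmd9, 0.16 for Psmd1, 0.08 for Psmb2, -0.02 for Psmb5 and -0.08 for Psmb6, so genes with a match spanned almost the whole range of the list. A match is a description of letters and not a measured binding site.

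Genes that work beside the constitutive proteasome gave 0 calls over all entries in each list described here. The inducible immunoproteasome subunits and the testis subunit had 4 of 5 listed genes measured, with 0 at an unadjusted limma p under 0.05. Psmb9 read 1.04, 1.11 and 1.29 in corn oil against 1.24, 0.95 and 0.84 in anthraquinone, a difference of -0.14 ± 0.13 (SE, n = 3 per group, limma adjusted p = 0.618). Psmb8 had -0.12 and Psmb10, the third inducible catalytic subunit, 0.05, and the testis gene Psma8, near the floor of the array, had -0.32 ± 0.18 (limma adjusted p = 0.401), which turned to 0.07 with normexp background correction. Anthraquinone replicate 3 was the lowest array for Psmb8 and Psmb9, while the constitutive genes were mostly highest there.

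Among the activators and the inhibitor of the core particle 0 of 5 had an unadjusted limma p under 0.05. The nuclear activator gene Psme3 had a difference of 0.19 ± 0.09 (SE, n = 3 per group, limma adjusted p = 0.340) and the inhibitor gene Psmf1 0.16 ± 0.09 (limma adjusted p = 0.420). Both were without overlap upward between the groups, as were 15% of all entries. The interferon-inducible activator genes Psme1 and Psme2 had -0.05 and -0.07. Of 8 other regulatory particle proteins, 4 were measured and 1 had an unadjusted limma p under 0.05 upward (9.47% of all entries). It was the ubiquitin receptor gene Adrm1, which read -0.82, -0.70 and -0.74 in corn oil against -0.65, -0.50 and -0.43 in anthraquinone (0.23 ± 0.09, limma adjusted p = 0.271). Txnl1 had 0.14, and Usp14, a deubiquitinating enzyme gene, and Sem1 had -0.13 and -0.05. The sign of Usp14 turned to 0.15 with the median of its probes. Of 6 listed assembly chaperones 3 were measured and 0 had such a p. The maturation factor gene Pomp had 0.15 ± 0.07 (limma adjusted p = 0.320), which was -0.01 after quantile normalization, and Psmg4 and Psmg2 had 0.10 and -0.03. The other 2 Psmg4 probes gave -0.06 and -0.05.

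Genes that activate ubiquitin or deliver ubiquitinated substrate were also examined. Of 10 shuttle and segregase genes 9 were measured, with a median of 0.15 (0.01 over all entries, 0.05 for genes of like signal). All 9 were positive (51.6% of all entries, 64.8% of genes of like signal). At an unadjusted limma p under 0.05, 3 were higher (9.47% of all entries, 11.8% of genes of like signal). Like signal is set by the proteasome genes, and some of these 9 were dimmer. After quantile and cyclic loess normalization 8 of 9 were positive. After centring on genes of like signal, a setting added after seeing the data, 7 of 9 were. Sqstm1, which encodes the autophagy receptor p62 and is a known Nrf2 target, read 4.46, 4.54 and 4.77 in corn oil against 5.18, 5.26 and 5.48 in anthraquinone. Its groups stood well apart, with a difference of 0.71 ± 0.12 (SE, n = 3 per group), yet it did not pass over all entries (limma adjusted p = 0.154). All 5 Sqstm1 probes were positive, from 0.71 to 1.03, with unadjusted limma p from 9.29e-06 to 0.00102. The brightest probe, which stood for the gene, had the largest of these p-values. Ubqln1, which carries ubiquitinated proteins to the proteasome, had 0.35 ± 0.12 (limma adjusted p = 0.234). The genes for E1 enzymes, which activate ubiquitin, had differences of -0.01 for Uba1 and -0.11 for Uba6. Other Uba6 probes gave 0.05 and -0.23, the latter with an unadjusted limma p of 0.0265.

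Of the 7 transcriptional regulators 5 were positive (51.6% of all entries) and 1 had an unadjusted limma p under 0.05 upward (9.47% of all entries). That gene was Maff, a small Maf partner of Nrf1 and Nrf2, at -4.50, -3.76 and -4.44 in corn oil against -3.74, -3.37 and -3.01 in anthraquinone (0.86 ± 0.26, SE, n = 3 per group, limma adjusted p = 0.219). Maff was dim, with a mean signal of -3.80, and its difference ran from 0.47 to 1.12 over the alternatives. Mafk had 0.26 ± 0.13 (limma adjusted p = 0.362), and Keap1 and Ngly1, the latter an enzyme that processes Nrf1, had differences of -0.02 and -0.02. Other Ngly1 probes gave -0.04, -0.07 and -0.28, the last with an unadjusted limma p of 0.011. The genes of Nrf1 and Nrf2 themselves had overlapping groups. Nfe2l1 had 0.10 ± 0.14 (limma adjusted p = 0.737) and Nfe2l2 0.13 ± 0.12 (limma adjusted p = 0.629).

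**Figure D5:**
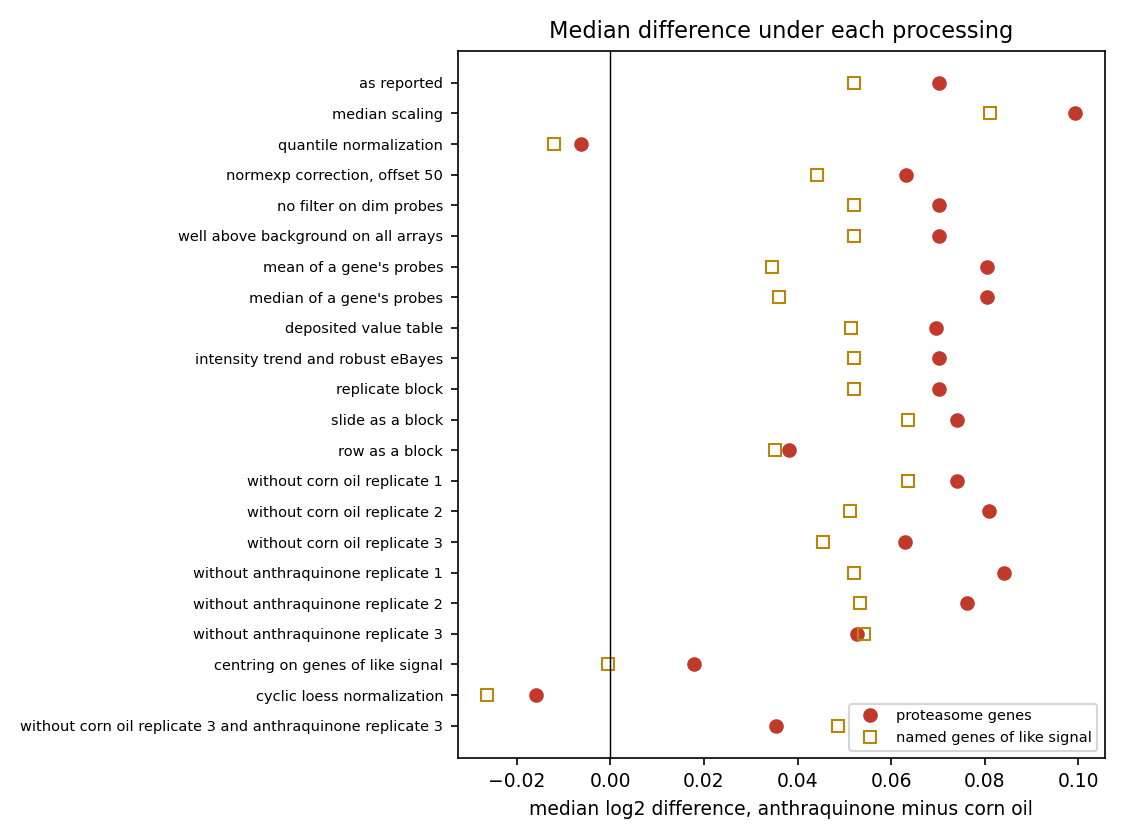
Median log2 difference of the 33 proteasome genes (filled circles) and of named genes of like signal (open squares) under each processing of the arrays. The circles run from -0.02 with cyclic loess normalization to 0.10 with median scaling, and the squares from -0.03 to 0.08 in the same settings. The gap between them is not constant. Circle minus square is 0.018 in the main setting and 0.046 when the probes of each gene are averaged. It is -0.013 without corn oil replicate 3 and anthraquinone replicate 3.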

How the data were processed

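The deposited scanner files hold spot intensity on a linear scale, which the authors' scanner software had background-subtracted and spatially detrended without scaling between arrays. That software was Agilent Feature Extraction, 10.7.1.1 in the headers and 10.7 in the submitters' processing notes. The deposited value table holds the same intensity divided by 1 constant per array (90.7 to 97.0% of probes within 0.01 log2), with column medians of 0.109 to 0.114 and its scale unstated. The deposited flags, coded as other values of 0 or 1, mark outliers and probes well above background.

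Each array's processed intensity was put on the log2 scale and its 75th percentile (61657 probes, controls left out) subtracted, with 2 to 13 outlier spots per array omitted. A probe was kept where every array of 1 group or both was well above background. Probes were named through the RefSeq transcripts of GRCr8 (27460 probes, 15284 symbols), and the brightest probe stood for a gene. Groups came from sample titles. Groups were fitted by limma 3.58.1 under R 4.3.3 (lmFit, eBayes). The p-values of the 32663 entries were adjusted together by Benjamini-Hochberg, with 0.05 as the threshold, and the fit was tested on simulated data.

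The rule for the proteasome genes used their symbols alone, but that family and the related lists were chosen with earlier results of these data known. Up to 14 proteasome genes by smallest p, plus the most negative, are given in full, and up to 2 genes per direction from each related list. Nfe2l1 and Nfe2l2 are given in addition. Some genes of 1 related list are not reported here. Other genes are given by range. Alternatives covered scaling, background correction, filter, probe choice, value table, variance model, blocks and arrays left out.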

Additional observations from a re-analysis of the deposited data

How the results depend on the processing

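In all 21 alternatives 0 of 33 proteasome genes passed the test, and 637 of 693 single-gene values kept their sign. The entries passing over the array numbered 16 with normexp correction, 6611 with no filter on dim probes (49481 entries), 81 with an intensity trend and robust eBayes, 1 with the replicate block, 2 with slide as a block and 1 with row as a block, against 9, and 1 to 32 with an array left out, the extremes being the fits that lacked anthraquinone replicate 2 and corn oil replicate 3. Proteasome genes higher at an unadjusted limma p under 0.05 numbered 4 with median scaling or normexp, 0 with quantile normalization, 2 with the stricter filter, the mean or the median of probes, 6 with trend and robust eBayes, 0 with the replicate block, 3 with slide and 0 with row as a block, 0 after centring on genes of like signal, cyclic loess or leaving out corn oil 3 and anthraquinone 3 together, and 0 to 3 with an array left out. No shared pattern by replicate number was seen over all entries, where deviations of same-numbered arrays correlated at 0.028, -0.059 and -0.0074. Such correlations cannot show that the animals were unpaired. The replicate block changed no call on a proteasome gene; Hmox1 and Nqo1 each had a limma adjusted p of 0.191 with it. Sqstm1 passed only with no filter on dim probes (limma adjusted p = 0.0199). The median over proteasome genes moved to -0.0062 with quantile normalization, 0.018 with centring on genes of like signal and -0.016 with cyclic loess; the cause was not tested. Centring, cyclic loess and leaving out 2 arrays were added after seeing the data.

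The single-gene values that changed sign were as follows. With median scaling they were Psma1 0.025, Psma5 0.011, Psmb1 0.0041, Psmb5 0.0099, Psmc3 0.027, Psmd10 0.0081, Psmg2 0.0015, Uba1 0.016, Ngly1 0.011 and Keap1 0.0098. With quantile normalization they were Psma2 -0.040, Psmb3 -0.073, Psmb4 -0.019, Psmc2 -0.060, Psmc5 -0.15, Psmd2 -0.0062, Psmd4 -0.031, Psmb10 -0.014 and Pomp -0.015. With cyclic loess they were Psma2 -0.039, Psmb2 -0.016, Psmb3 -0.081, Psmb4 -0.023, Psmc2 -0.064, Psmc5 -0.12, Psmd4 -0.046 and Psmb10 -0.018. Centring on like signal gave Psma2 -0.012, Psmb3 -0.024, Psmc5 -0.039, Psmd4 -0.011, Psmd7 -0.00073 and Psmb10 -0.0051. Slide as a block gave Psma1 0.0020, Psma2 -0.073, Psma5 0.033, Psmc3 0.0019, Psmc6 0.032, Psmd10 0.0059, Sem1 0.00073 and Keap1 0.0036. Row as a block, which compares anthraquinone with corn oil replicate 1 alone, gave Psmc5 -0.067, Psmd4 -0.0020, Psmd6 -0.0025, Psmb10 -0.022, Psme1 0.072 and Uba1 0.022. Normexp gave Psma8 0.065. The median of probes gave Usp14 0.15 and Psmg4 -0.050. The mean of probes gave Psmg4 -0.0029. With 1 array left out in turn, or corn oil 3 and anthraquinone 3 together, the ranges that crossed 0 were -0.036 to 0.013 for Psma1, -0.073 to 0.17 for Psma2, -0.097 to 0.033 for Psma5, -0.046 to 0.00033 for Psmb5, -0.024 to 0.018 for Psmc3, -0.030 to 0.054 for Psmc5, -0.16 to 0.032 for Psmc6, -0.029 to 0.063 for Psmd4, -0.020 to 0.098 for Psmd7, -0.14 to 0.036 for Psmd14, -0.070 to 0.0059 for Psmd10, -0.020 to 0.083 for Psmb10, -0.11 to 0.00091 for Psme1, -0.10 to 0.0041 for Sem1, -0.090 to 0.0079 for Psmg2, -0.048 to 0.030 for Uba1, -0.037 to 0.0014 for Ngly1 and -0.039 to 0.0036 for Keap1.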
